A study of Mus musculus with 18 samples.

Results

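The regions described here are the listed H3K4me3 regions that shared at least 1 base with a listed H3K9ac region and none with a listed H3K27me3 region. Each list holds places where the authors compared mouse T cell acute lymphoblastic leukaemia (T-ALL) with normal CD4+ CD8+ double-positive (DP) thymocytes. The rule found 1373 such regions among the 13377 H3K4me3 regions of the 11 chromosomes that the H3K9ac list covers, and among 21402 H3K4me3 regions in all. They are called shared regions below. They were chosen by their overlap with listed H3K9ac and their lack of overlap with listed H3K27me3, so neither property is a finding.

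The study made chromatin immunoprecipitation sequencing (ChIP-seq) libraries from DP cells of normal thymus and from tumours that over-express Notch1-IC, the intracellular part of Notch1. Its 18 libraries include 2 DP and 2 T-ALL libraries for each histone mark and 1 T-ALL library for Notch1. The others are input libraries, and which libraries entered each list is not stated. The strain, the age, the promoter that drives Notch1-IC and whether animals were pooled are not stated in the labels. Because the lists give only positions and colours, depth is unknown, and neither a spread between replicates nor a test between samples could be computed.

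Every histone region has a display colour, green or red. Neither the labels nor the file headers tell which of them stands for more of the mark in T-ALL. The reference gene table used here is on another build (GRCm38.p6) than the lists (mm9). Regions were therefore not placed relative to genes, no sequence was read, and the labelled cell types were not checked against marker genes. Shares are given with 95% Clopper-Pearson intervals. These cover counting error only and treat neighbouring regions as independent, so shares set side by side are descriptions and not tests.

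H3K4me3 is laid down by the SET1 and MLL methyltransferase complexes at the start sites of active and poised genes. Acetylation of H3K9, placed by enzymes such as GCN5 and PCAF, marks active promoters and enhancers, and broad H3K4me3 domains are known for lying over genes that define a cell's identity. H3K27me3 is the Polycomb repressive mark. The cleaved intracellular part of Notch1 binds DNA through RBPJ, and its signal normally declines as thymocytes reach the DP stage and is switched on in many cases of T-ALL.

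Most shared regions were green in H3K4me3. There were 845 green and 528 red shared regions, so green made up 61.5% (58.9 to 64.1). Among all H3K4me3 regions of the 11 chromosomes green made up 48.7%. Seen the other way, 13.0% of green H3K4me3 regions (12.2 to 13.8) and 7.70% of red ones (7.08 to 8.36) were shared regions. Under 500 bp wide this order was turned, with 12 of 330 green (3.64%) and 108 of 649 red H3K4me3 regions (16.6%). The green share of the shared regions exceeded that of all H3K4me3 regions on each of the 11 chromosomes. It ran from 53.1% on chromosome 4, where 41.6% of all H3K4me3 regions were green, to 70.7% on chromosome 6, against 50.4% there. All these backgrounds hold regions that met H3K27me3, which the rule left out. Those that met H3K27me3 and not H3K9ac were 981 red and 158 green, so the rule itself favours green. Regions that met neither mark were 5502 green and 5341 red.

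The shared regions were spread over all 11 chromosomes. Chromosome 11 had the most, with 212, and chromosome 16 the fewest, with 74. As a share of the H3K4me3 regions of a chromosome they made up from 7.40% on chromosome 4 to 11.8% on chromosome 11.

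The colour of H3K9ac hardly differed between green and red shared regions. Of the 845 green shared regions, 453 met only green H3K9ac, 391 only red H3K9ac and 1 both colours. Of the 528 red ones, 281 met only green H3K9ac, 246 only red and 1 both. Green H3K9ac thus made up 53.7% (50.2 to 57.1) in green and 53.3% (49.0 to 57.6) in red shared regions with 1 H3K9ac colour, and green made up 50.7% of the whole H3K9ac list. The 2 marks had the same colour in 699 of these 1371 shared regions (51.0%, 48.3 to 53.7). By chromosome the same-colour share lay from 45.9% on chromosome 17 to 59.4% on chromosome 6. It depends in part on how common each colour is. On chromosome 17, 60.4% of the shared regions were green in H3K4me3 and 38.7% met green H3K9ac. On chromosome 6 these values were 70.7% and 62.6%. No expected same-colour share was computed.

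Among green shared regions the H3K9ac colour differed with width. Green H3K9ac alone was met by 48.0% (43.5 to 52.5) of the green shared regions from 500 bp to under 1000 bp wide, by 58.7% (52.5 to 64.7) of those from 1000 bp to under 2000 bp and by 77.8% (66.4 to 86.7, 56 of 72) of those of 2000 bp or more. Among green shared regions under 500 bp wide it was 4 of 12. Red shared regions gave no such rise. Their values were 54.6% (44.8 to 64.2) under 500 bp, 53.0% (47.5 to 58.4) from 500 bp to under 1000 bp and 53.7% (42.3 to 64.7) from 1000 bp to under 2000 bp. The only red shared region of 2000 bp or more met red H3K9ac. A wide region can meet several H3K9ac regions, and a region that met both colours is left out of these shares.

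**Figure D1:**
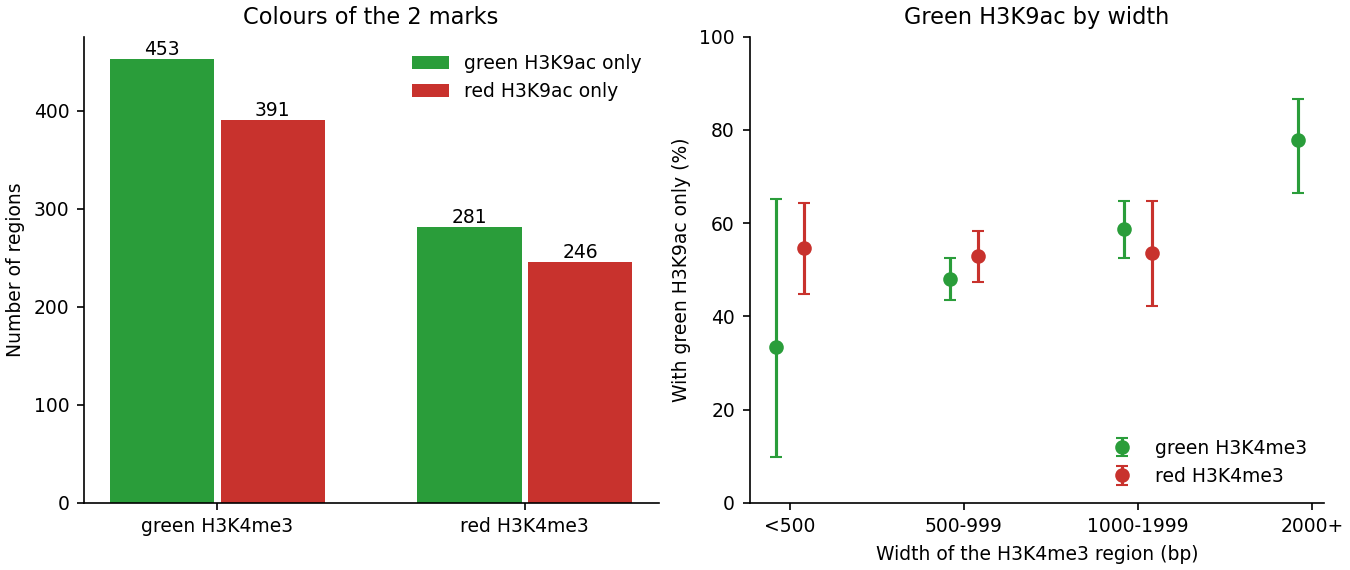
Left, number of shared H3K4me3 regions of each colour (bars, vertical axis from 0) that met only green or only red H3K9ac: 453 and 391 for green H3K4me3, 281 and 246 for red. Right, share that met only green H3K9ac (per cent, points, with 95% Clopper-Pearson intervals) by width of the H3K4me3 region in bp, rising to 77.8% in the widest green class and staying at 53.0 to 54.6% in the 3 red classes with 5 regions or more.

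Green shared regions were broader than green H3K4me3 regions that met neither of the other marks, called H3K4me3-only regions below. Their median width was 875 bp (upper quartile 1225 bp, maximum 6675 bp), against 700 bp for the 5502 green H3K4me3-only regions. Red shared regions had a median of 675 bp and a maximum of 2375 bp, against 600 bp for the 5341 red H3K4me3-only regions. Wider regions can meet H3K9ac more easily, so the rule itself favours width. Of all green H3K4me3 regions of 2000 bp or more, 45.9% were shared regions, against 10.3% of those from 500 bp to under 1000 bp. Of red ones 15.5% from 1000 bp to under 2000 bp were shared regions, against 5.94% from 500 bp to under 1000 bp.

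Red shared regions had both more narrow and more wide members than red H3K4me3-only regions. Of the 528 red shared regions 108 (20.5%) were under 500 bp wide, against 9.89% of the red H3K4me3-only regions, and 15.7% against 5.69% were from 1000 bp to under 2000 bp. In the green class narrow regions were instead scarcer, at 1.42% against 5.74%. A narrow region has fewer bases to share, so the rule itself disfavours it in either colour.

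**Figure D2:**
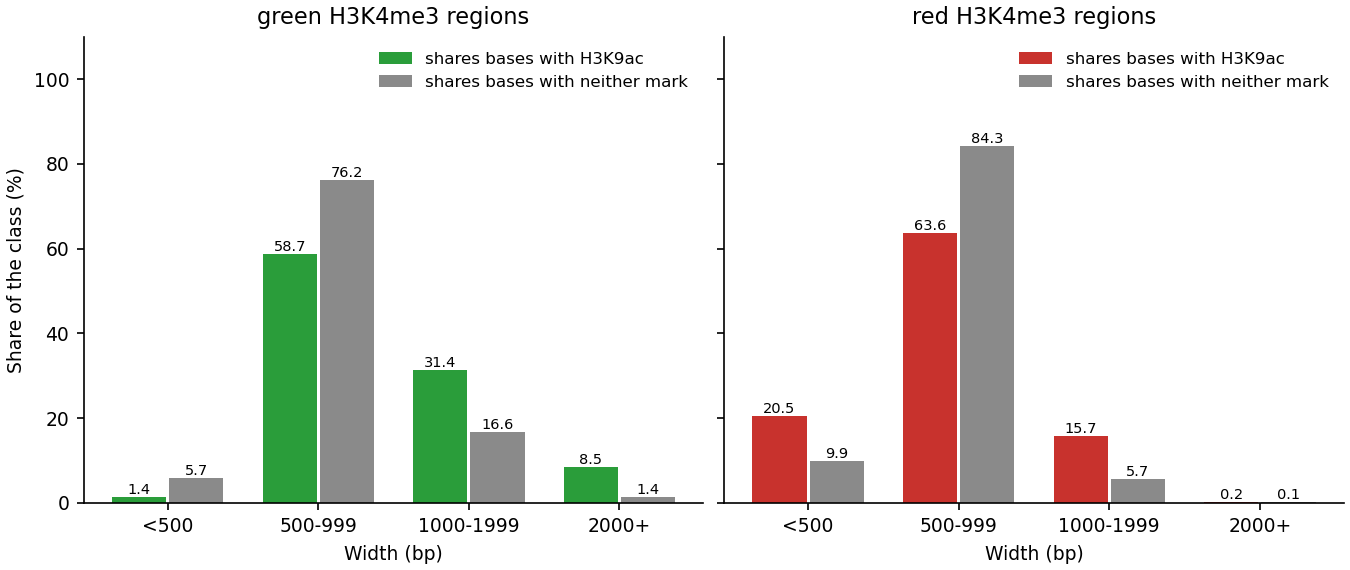
Share of each class (per cent, bars from 0) by width in bp, for green (left) and red (right) H3K4me3 regions. Coloured bars are regions sharing bases with H3K9ac and grey bars are H3K4me3-only regions. Narrow regions make up 20.5% of the red shared regions against 9.89%, and 1.42% of the green ones against 5.74%.

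The 10 broadest green shared regions were 4325 to 6675 bp wide. Of these, 9 met only green H3K9ac, 7 met 2 or more H3K9ac regions and 0 met a Notch1 peak. The broadest of all, on chromosome 2 from 11563526 to 11570200, contained 3 H3K9ac regions, all green, from 11564851 to 11565350, from 11565576 to 11566325 and from 11566851 to 11567625. All 3 lay wholly inside it and together covered 30.3% of its bases. The next, on chromosome 3 from 106286551 to 106292275 (5725 bp), was covered for 67.7% by 2 green H3K9ac regions, the highest coverage of the 10. The lowest, 13.6%, was that of the region on chromosome 6 from 108781226 to 108785825 (4600 bp), the only 1 of the 10 with red H3K9ac.

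H3K9ac did not fill these broad regions. On chromosome 1 the shared region from 173846976 to 173852525 (5550 bp) held H3K9ac regions of 650 bp and 725 bp, which covered 24.8% of it. On chromosome 9 the region from 44789626 to 44794450 (4825 bp) held 2 of 500 bp each, covering 20.7%. The region on chromosome 2 from 26369301 to 26374800 (5500 bp) was covered for 52.3%, mostly by 1 green H3K9ac region of 2150 bp. The remaining 4 of the 10 were covered for 14.8% (chromosome 3 from 78980826), 15.0% (chromosome 19 from 36608026), 29.4% (chromosome 11 from 11590476) and 41.1% (chromosome 6 from 41493951).

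The 10 broadest red shared regions were much narrower, at 1675 to 2375 bp, and each met a single H3K9ac region. They were evenly divided, 5 with green and 5 with red H3K9ac, and 1 met a Notch1 peak. The broadest lay on chromosome 7 from 71082351 to 71084725, where a red H3K9ac region from 71084001 to 71084850 crossed its right edge and covered 30.5% of it. The broadest with green H3K9ac lay on chromosome 17 from 4994576 to 4996550 (1975 bp), with an H3K9ac region of 900 bp wholly inside it. In 5 of the 10 the nearest other H3K4me3 region was green and within 1 kb. On chromosome 1 the region from 107886651 to 107888325 adjoined a green one with a gap of 0 bp.

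Among broad green regions with red H3K9ac, the broadest after the one on chromosome 6 lay on chromosome 9 from 100978726 to 100982600 (3875 bp) and on chromosome 11 from 103812276 to 103815225 (2950 bp). Red H3K9ac covered 20.0% and 8.47% of them. These are low values beside the median of 47.6% over all 391 green shared regions with red H3K9ac, whose widths are mostly smaller.

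The H3K9ac region most often lay across an edge of the H3K4me3 region. Median widths were 800 bp for shared regions and 625 bp for the H3K9ac regions of either colour that met them. Such widths and the rule of 1 shared base favour a crossed edge by themselves, and no expected share was computed. The shared regions had 1433 meetings with H3K9ac regions. In 996 of them (69.5%, 67.0 to 71.9) the H3K9ac region crossed 1 edge, in 290 (20.2%) it lay inside, and in 147 (10.3%) it spanned the whole H3K4me3 region. Inside positions were most frequent where both marks were green, at 30.5% (26.5 to 34.8) of 488 meetings. They were least frequent where both were red, at 9.09% (5.85 to 13.3) of 253. Green with red H3K9ac gave 16.4% of 403 and red with green H3K9ac 18.0% of 289. A wider region can hold a whole H3K9ac region more easily, and widths were not matched between the pairs. The median width was 950 bp for green with green H3K9ac and 800 bp for green with red. It was 675 bp for red shared regions with either H3K9ac colour.

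Both the number of shared bases and the part covered differed between the colour pairs. The median number of shared bases was 475 bp for green with green H3K9ac, 400 bp for green with red, 425 bp for red with green and 325 bp for red with red. H3K9ac covered a median of 41.0% of the region for green with green H3K9ac, 47.6% for green with red, 65.0% for red with green and 58.5% for red with red. Red shared regions, the narrower ones, had fewer shared bases but a larger part covered, at medians of 375 bp and 62.5% against 450 bp and 43.3% for green. Red H3K4me3 lay closest to green H3K9ac, with a median distance of 225 bp between the centres. This distance was 312.5 bp for red with red, 375 bp for green with red and 400 bp for green with green. All borders lie on a grid of 25 bp, so smaller shifts cannot be seen.

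Most shared regions met a single H3K9ac region. That held for 1319 of 1373, while 49 met 2, 4 met 3 and 1 met 4. The one with 4 was a green region of 2575 bp on chromosome 11 from 86398751 to 86401325, covered for 82.5% by its 4 H3K9ac regions, all green. Of those with 3, the regions on chromosome 2 and on chromosome 6 from 41493951 are described above. Another, on chromosome 6 from 41007026 to 41010150, was covered for 90.4% by green H3K9ac. The last of them, on chromosome 9 from 123676526 to 123678775 (2250 bp), had 3 red H3K9ac regions that covered 74.4% of this green region.

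Both colours of H3K9ac were met by 2 shared regions. The red one, on chromosome 2 from 75541876 to 75543525, shared 25 bp with a green H3K9ac region at its left edge and 500 bp with a red one. In the green one, on chromosome 4 from 40893851 to 40895100, a red H3K9ac region ended at 40894825 and a green one began at the next base.

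From the side of H3K9ac, green regions met shared regions more often than red ones did. A shared region was met by 692 of 952 green H3K9ac regions (72.7%, 69.7 to 75.5) and by 576 of 926 red ones (62.2%, 59.0 to 65.3). A further 20 green and 3 red H3K9ac regions met only H3K4me3 regions that also shared bases with H3K27me3. No H3K4me3 region at all was met by 240 green (25.2%) and 347 red (37.5%) H3K9ac regions. In both colours the H3K9ac regions in shared regions had a median width of 625 bp. Those without H3K4me3 had medians of 575 bp (green) and 625 bp (red).

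Some H3K9ac regions touched H3K4me3 regions of opposite colour. Of the 1268 H3K9ac regions that met shared regions, 158 (12.5%, 10.7 to 14.4) met 2 or more of them. In 96, which are 7.57% of the 1268 and 60.8% (52.7 to 68.4) of the 158, the shared regions joined were green and red, in 53 they were all green and in 9 all red. Red H3K9ac regions joined green with red H3K4me3 in 56 of 79 cases (70.9%, 59.6 to 80.6) and green ones in 40 of 79 (50.6%, 39.1 to 62.1). Through these joins 321 shared regions (23.4%) had an H3K9ac region in common with another, so they are not separate observations of H3K9ac. Unlike colours also lay side by side without H3K9ac. Among H3K4me3-only regions with a neighbour within 1 kb, the nearest was green for 71.3% of the red and 59.9% of the green ones.

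Red shared regions commonly lay beside green H3K4me3. Another H3K4me3 region was within 1 kb of 279 of the 528 red shared regions (52.8%, 48.5 to 57.2), against 22.9% (21.8 to 24.0) of red H3K4me3-only regions. In 227 of these 279 (81.4%, 76.3 to 85.8) the nearest was green, against 71.3% (68.7 to 73.8) of the red H3K4me3-only regions with a neighbour. Counting a green region within 1 kb on either side, 234 red shared regions (44.3%, 40.0 to 48.7) had one, against 16.7% (15.7 to 17.7) of the red H3K4me3-only regions. An H3K9ac region that reaches 2 nearby H3K4me3 regions can bring both under the rule, so the rule itself favours close neighbours. Such joins held 321 shared regions (23.4%), and 96 of the 158 joining H3K9ac regions linked green with red. How much of the difference this makes was not tested.

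Green shared regions differed less in this respect from green H3K4me3-only regions. Another H3K4me3 region was within 1 kb of 60.1% (56.7 to 63.4) of them, against 47.3% (45.9 to 48.6). The nearest was green in 64.6% (60.2 to 68.7) of those with a neighbour, against 59.9% (58.0 to 61.8). Here too the rule itself favours close neighbours.

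Around the centres of red shared regions, coverage by green H3K4me3 rose to a mean over both sides of 18.7% at 975 bp and was 9.00% at 2000 bp. Around red H3K4me3-only regions it reached 6.84%, at 850 bp. Coverage by red H3K4me3 around green regions reached 7.34% for shared and 6.53% for H3K4me3-only regions. The excess in coverage by the other colour was thus seen around red shared regions and hardly around green ones. The way the rule favours close neighbours also bears on these profiles, and its part was not tested. Coverage by the same colour, the region itself included, was higher around shared regions of both colours. At 1000 bp it was 22.8% around green shared and 12.0% around green H3K4me3-only regions. For red it was 4.26% and 2.45%.

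Coverage by H3K9ac fell off faster around the centres of red shared regions where it was green. At 750 bp from the centre it covered a mean of 11.7% of red shared regions with green H3K9ac and 24.8% of those with red H3K9ac. At the same distance from green shared regions the values were 25.2% with green and 25.5% with red H3K9ac.

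**Figure D3:**
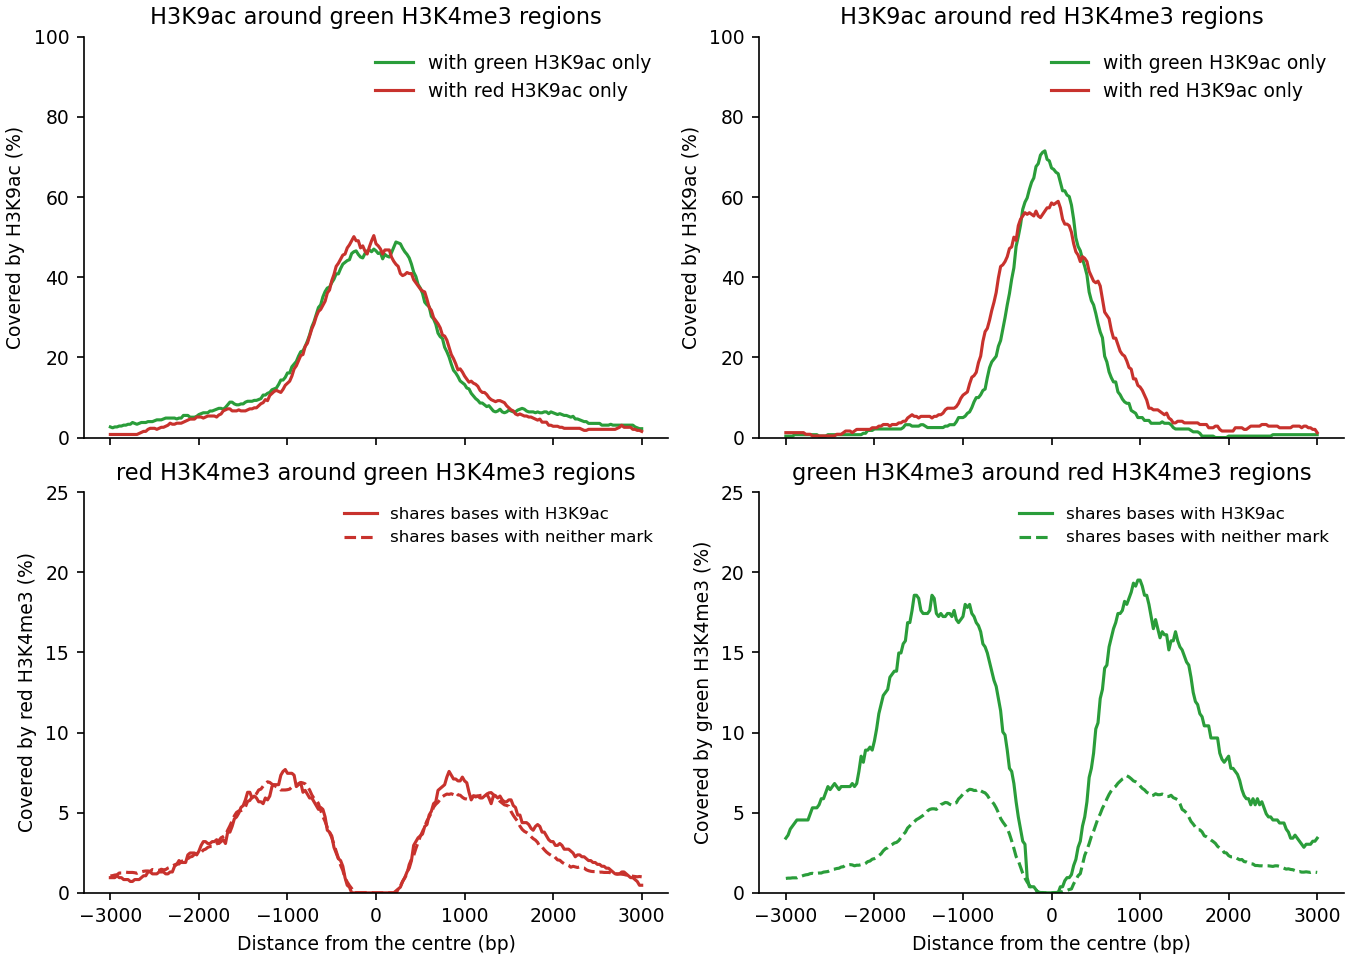
Top, share of green (left) and red (right) shared regions covered by H3K9ac (per cent) against distance from the centre of the H3K4me3 region (bp, in genome order, since strand is not known), with line colours for the H3K9ac colour. Bottom, share covered by H3K4me3 of the other colour around shared (solid) and H3K4me3-only (dashed) regions, where green H3K4me3 flanks red shared regions at up to 18.7% (mean of both sides) against 6.84%.

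Within a green region with a red neighbour, the centre of H3K9ac mostly lay on the side of that neighbour. Where a green shared region had a red H3K4me3 region within 1 kb on 1 side only, the centre of its H3K9ac was on the side of the red region in 170 of 199 meetings (85.4%, 79.7 to 90.0). With a green neighbour on 1 side it was on that side in 213 of 318 (67.0%, 61.5 to 72.1). In red shared regions with a green neighbour on 1 side it was on that side in 109 of 190 meetings (57.4%, 50.0 to 64.5). With a red neighbour on 1 side it was on that side in 32 of 61 (52.5%, 39.3 to 65.4). Each neighbour colour was judged apart. A region with red on 1 side and green on the other thus entered the tallies of both neighbour colours. In such a region a centre towards red counted against green, so the shares are not from separate regions. An H3K9ac region that also meets the neighbour reaches past the facing edge, which by itself favours a centre on that side. The 96 H3K9ac regions that joined green with red shared regions were not counted apart here. Widths were not matched either, with medians of 875 bp for green and 675 bp for red shared regions. Whether H3K9ac lies towards a neighbour beyond these effects was not tested.

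The shared regions formed few dense groups. Joined where the gap was 5 kb or less, they made 1127 groups, of which 916 were lone regions, 185 pairs, 21 groups of 3, 1 of 4 and 4 of 5. Of the 211 groups with 2 or more shared regions, 123 held both colours, 77 only green and 11 only red. Only green H3K9ac was met in 102 groups and only red in 92, and 17 had both. In 135 of the 211 groups 1 H3K9ac region met all the shared regions and in 155 it met at least 2 of them, which largely fixes a single H3K9ac colour. In the remaining 56 groups H3K9ac was green in 26, red in 17 and of both colours in 13, and 22 held both H3K4me3 colours.

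The 5 largest groups ran from all-green to opposite colours in the 2 marks, and 0 of the 5 spans held a Notch1 peak. On chromosome 6 from 41005476 to 41012875, 5 green shared regions covered 6500 of 7400 bp with 4 green H3K9ac regions. On chromosome 11 from 11585726 to 11594900, 4 green shared regions lay to the right of a red one of 375 bp, which shared only 25 bp with H3K9ac. All 4 H3K9ac regions there were green, and 1 of them, from 11588476 to 11591100, joined 4 green shared regions.

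The other 3 large groups all met red H3K9ac. On chromosome 17 from 34764126 to 34768150, 4 green shared regions and a red one met 2 red H3K9ac regions, the second of them 2925 bp wide. On chromosome 6 from 71272651 to 71279475, 4 green shared regions met 1 green and 4 red H3K9ac regions. On chromosome 11 from 52086251 to 52095075, 2 red shared regions lay to the left of 3 green ones. The leftmost met red H3K9ac, and the other 4 met green H3K9ac.

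**Figure D4:**
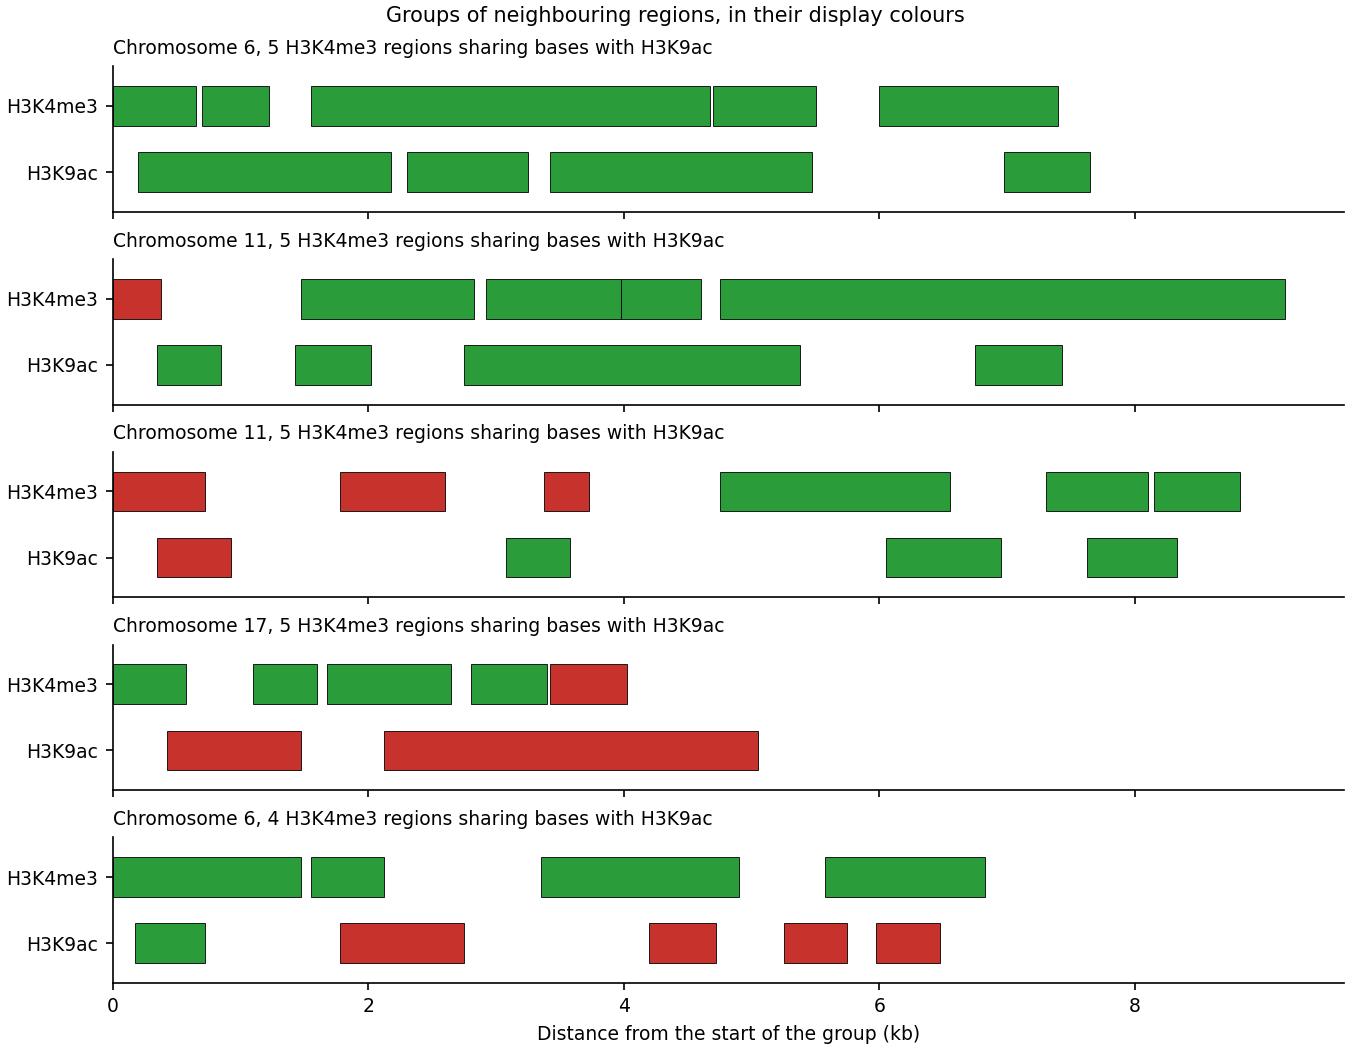
The 5 largest groups of shared regions, drawn to scale as distance from the start of the group in kb, with H3K4me3 regions above and H3K9ac regions below in their display colours. The first group is green in both marks, the fourth (chromosome 17) has red H3K9ac under 4 green H3K4me3 regions and 1 red one, and 1 red H3K4me3 region of the third group shares no base with H3K9ac.

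Notch1 peaks were rare in shared regions of either colour. A Notch1 peak shared a base with 32 of the 1373 shared regions (2.33%, 1.60 to 3.27), against 9.16% of all H3K4me3 regions of the 11 chromosomes. For red the count was 15 of 528 (2.84%, 1.60 to 4.64), against 16.9% of all red H3K4me3 regions. For green it was 17 of 845 (2.01%, 1.18 to 3.20), against 0.997% of all green ones. Part of these backgrounds are regions that met H3K27me3, which the rule left out.

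Against H3K4me3-only regions the red value was lower and the green value higher. A Notch1 peak was met by 804 of 5341 red H3K4me3-only regions (15.1%, 14.1 to 16.0) and by 38 of 5502 green ones (0.691%, 0.489 to 0.947). The share in red shared regions was about the same with green H3K9ac (8 of 281, 2.85%) and with red (7 of 246, 2.85%). In green shared regions it was 2.21% with green and 1.79% with red H3K9ac.

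The red difference was widest in regions of middle width. From 500 bp to under 1000 bp, 5 of 336 red shared regions (1.49%, 0.485 to 3.44) met a Notch1 peak, against 740 of 4504 red H3K4me3-only regions (16.4%, 15.4 to 17.5). From 1000 bp to under 2000 bp the shares were 10.8% (9 of 83, 5.08 to 19.6) and 18.4% (14.2 to 23.2), whose intervals overlap. Under 500 bp they were 0.926% (1 of 108) and 1.52% (8 of 528).

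**Figure D5:**
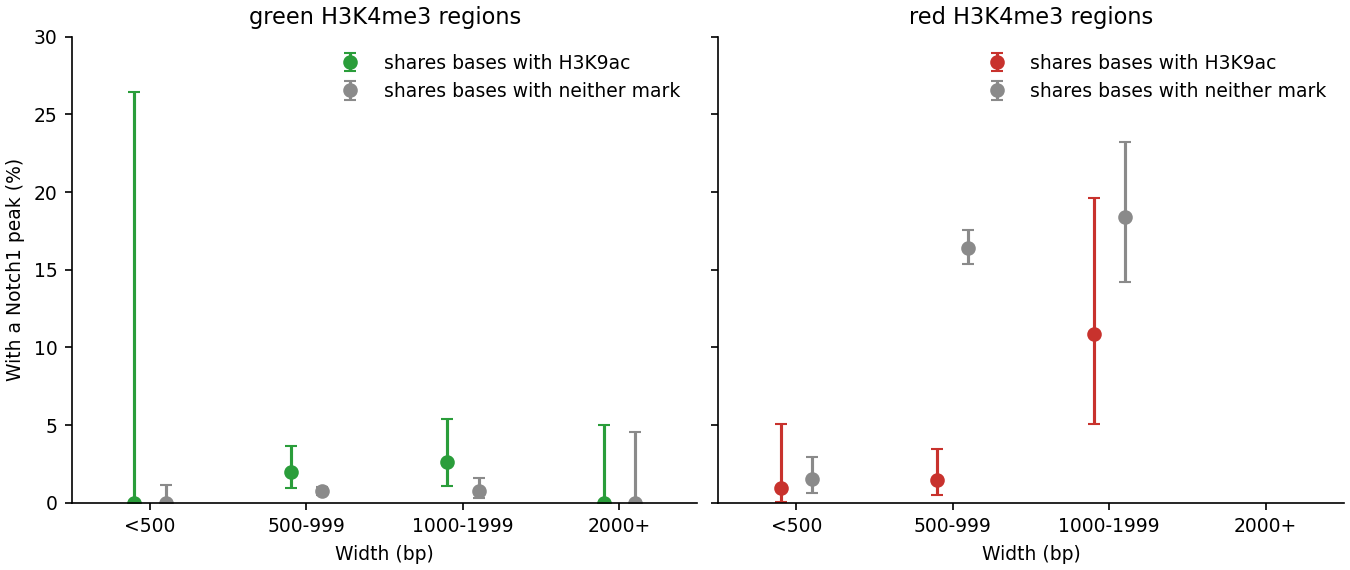
Share of H3K4me3 regions that met a Notch1 peak (per cent, points, with 95% Clopper-Pearson intervals) by width in bp, for green (left) and red (right) regions in classes of 10 regions or more. Coloured points are shared regions and grey points H3K4me3-only regions, and the gap is widest for red regions from 500 bp to under 1000 bp, at 1.49% against 16.4%.

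The Notch1 share was low in red shared regions with and without green H3K4me3 nearby, and in red H3K4me3-only regions with it. Where a green H3K4me3 region lay within 1 kb, 6 of 234 red shared regions (2.56%, 0.947 to 5.50) and 27 of 893 red H3K4me3-only regions (3.02%, 2.00 to 4.37) met a peak. Where none did, the counts were 9 of 294 (3.06%, 1.41 to 5.73) and 777 of 4448 (17.5%, 16.4 to 18.6).

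Regions with a peak nearby but none sharing a base were counted apart. Within 1 kb such a peak lay by 9 red shared regions (1.70%, 0.782 to 3.21) and 233 red H3K4me3-only regions (4.36%, 3.83 to 4.95). For green the counts were 4 (0.473%, 0.129 to 1.21) and 95 (1.73%, 1.40 to 2.11). At this distance the shares were lower for shared regions of both colours. Within 5 kb the red shares were 10.6% (8.11 to 13.6) and 15.3% (14.3 to 16.3), and the green ones 7.93% (6.20 to 9.96) and 8.27% (7.56 to 9.03).

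The peaks that did meet shared regions lay differently in the 2 colours, as did those in H3K4me3-only regions. With at least 50% of a peak inside the H3K4me3 region, 13 of 15 red shared regions but only 1 of 17 green ones still counted. Among H3K4me3-only regions 655 of 804 red and 7 of 38 green ones did, so this contrast was not particular to shared regions. The shares were then 2.46% (1.32 to 4.17) of red shared against 12.3% (11.4 to 13.2) of red H3K4me3-only regions. For green they were 0.118% (0.0030 to 0.658) and 0.127% (0.0512 to 0.262), so the higher green value above was not seen with this requirement. In all, 29 of the 9030 Notch1 peaks of the 11 chromosomes met a shared region, and 23 of these 29 also shared bases with an H3K9ac region. Every shared region meets H3K9ac by the rule, so the last count is partly set in advance. The share of all Notch1 peaks that met H3K9ac is not given here.

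The broadest shared regions with a Notch1 peak show this placement. The broadest red one, on chromosome 11 from 94852501 to 94854375 (1875 bp), held a green H3K9ac region on its left and a whole Notch1 peak from 94853626 to 94854300 on its right. Another red one on that chromosome, from 74644676 to 74645875, held a whole peak from 74645101 to 74645625 that lay within red H3K9ac. In the red region of chromosome 11 from 19824276 to 19825750 the peak of 500 bp lay inside, and red H3K9ac covered 150 bp at the right edge. On chromosome 16 the red region from 17927326 to 17928775 shared 375 bp with a peak of 575 bp.

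In each of the 5 broadest green shared regions with a peak, the peak crossed the rim. On chromosome 4 the green region from 132849126 to 132850900 (1775 bp) shared 125 bp with a peak of 675 bp. On chromosome 11 the one from 60032526 to 60033950 shared 75 bp, on chromosome 1 the one from 182834876 to 182836125 shared 125 bp, and on chromosome 16 the one from 35937326 to 35938750 shared 325 bp of a peak of 775 bp. On chromosome 7 a single peak from 121559526 to 121560075 met both a red and a green shared region. It had 250 bp in the red one, from 121558476 to 121559775, and 25 bp in the green one, from 121560051 to 121561825.

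The threshold of the rule divides similar regions. Just inside it, 30 shared regions had only 25 bp in common with H3K9ac, of which 19 were green, with a median width of 650 bp. Just outside it, 35 H3K4me3 regions without H3K27me3 adjoined an H3K9ac region with a gap of 0 bp and no shared base. Of these 22 were green, and their median width was 625 bp. Under 100 bp were shared by 98 of the 1373 shared regions.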

How the data were processed

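Fixation was in 1% formaldehyde for 10 min, per the labels' protocols. Micrococcal nuclease cut the chromatin for histone marks, and sonication that for Notch1. The submitters' processing notes name BWA and the builds NCBIM37 and mm9. How regions were called, with which thresholds and inputs, and how replicates were combined is not given in the sources used here. In the region lists deposited by the authors the BED score is 1000 in every row, so the score was not used. Depth is unknown. The H3K9ac list holds regions on 11 chromosomes (1, 2, 3, 4, 6, 7, 9, 11, 16, 17 and 19), and only those were used.

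Overlaps of 1 bp or more, widths, gaps and coverage were computed from the lists with Python 3.11.15, pandas 2.3.3 and scipy 1.17.1. The overlap code was checked on simulated lists. Starts are given 1-based. The regions named are, by rule, the 10 widest of each colour, the 3 widest of each colour pair, the 5 widest of each colour with a Notch1 peak, the 5 with the most H3K9ac regions, those with both H3K9ac colours and the 5 largest groups. The rule for regions and the groupings were chosen with earlier results of these data known. No test was made, since regions are not replicates.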

Additional observations from a re-analysis of the deposited data

How the results depend on the processing

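No paired analysis was possible because positions and colours are given with nothing per library, which also means that replicates could not be left out in turn. Gene annotation was not run, as the gene table is on another build. Of 41 values over 7 results and 7 alternatives, 27 stayed within the interval of the value reported (for the number of regions, within 1.5 times) and 14 moved. With 50% of the H3K4me3 region covered by H3K9ac, 685 shared regions remained by construction, 52.7% were green, 46.1% had the same colour in both marks and the median width was 675 bp. With H3K4me3 and H3K9ac regions at or above the median widths of their lists there were 522, of which 69.9% were green and 55.6% had the same colour, with a median of 950 bp. Merging H3K4me3 regions of 1 colour within 1 kb gave a median of 925 bp. With Notch1 limited to peaks of median width or more, 0.874% of shared regions met a peak (0.947% of red and 0.828% of green), against 9.10% of red and 0.291% of green H3K4me3-only regions. With 50% of a peak covered the share was 1.02% in all and 0.118% in green. The caller's thresholds and the unknown depth limit every count.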

Other observations

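A small set of H3K4me3 regions met both H3K9ac and H3K27me3 and so fell outside the rule. There were 22 on the 11 chromosomes, 15 green and 7 red, with a median width of 1287.5 bp. Red H3K27me3 was met by 20 of them and green by 2. Their H3K9ac was green alone in 19 and red alone in 3. Green made up 50.7% of the whole H3K9ac list, and the colour shares of the whole H3K27me3 list are not given here. A Notch1 peak was met by 4 of the 22 (18.2%, 5.19 to 40.3), a share with a wide interval. Among all H3K4me3 regions of the 11 chromosomes this share was 9.16%. Among those that met H3K27me3 and not H3K9ac it was 30.6% (348 of 1139, 27.9 to 33.3). The latter were mostly red (981 of 1139), while the 22 were mostly green. The display window named in the deposited files held 4 H3K4me3 regions, of which 2 belonged to this set and 0 were shared regions.

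Listed H3K27me3 was about as far from green shared regions as from green H3K4me3-only regions, with median gaps of 93050 bp and 92212 bp. For red the medians were 86775 bp for shared and 52000 bp for H3K4me3-only regions. Within 5 kb, H3K27me3 was found for 5.30% of red shared regions (3.55 to 7.57) and 12.2% of red H3K4me3-only regions (11.3 to 13.1). The rule removed regions that share bases with H3K27me3 from both classes.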
